A study of Rattus norvegicus with 6 samples.

Results

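Iron and heme handling in rat kidney was examined through 10 genes: Cybrd1, Slc11a2 and Tfrc, which bring iron into cells, Slc25a37, which takes it into mitochondria, Fth1 and Ftl1, which store it, Slc40a1, which exports it, Hmox1 and Blvrb, which act in heme breakdown, and the iron-binding protein Pir. The genes were chosen by name with their chlorothalonil against corn oil differences already known, so those differences are given as a description and no test on them is read. They are 10 of the 15645 gene symbols matched on the array and 28 of its 61537 non-control probes. In the animals given chlorothalonil, a chlorinated nitrile fungicide, Cybrd1 was 14.9-fold higher on average on its brightest probe and 4.88-fold on its other probe. Pir was 7.43-fold and 8.63-fold higher on its 2 probes, and Blvrb was 2.26-fold higher on its brightest. The ferritin subunits and Slc40a1 were 1.30-fold to 1.39-fold higher on their brightest probes and 1.12-fold to 1.66-fold over all their probes. The size for the ferritins depended on the scaling. The import genes Slc11a2 and Tfrc and the heme oxygenase gene Hmox1 had overlapping values in both groups.

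Male Sprague-Dawley rats of the Crl:CD(SD) stock, bought at 5 weeks of age, were dosed for 4 weeks. The 3 control animals received corn oil, the vehicle, and the 3 treated animals received chlorothalonil at 500 mg/kg/day. Total RNA of the renal cortex was labelled with Cy3 and measured on 1-colour Agilent arrays, 1 array per animal, and the design text calls the samples biological replicates. The comparison asks how repeated dosing with the compound changed RNA levels in this tissue. Precision is limited by having 3 arrays a group.

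Iron enters most cells as transferrin bound to the transferrin receptor, or as ferrous iron through the transporter DMT1 after a ferric reductase has reduced it. Inside the cell it is used in mitochondria for heme and iron-sulfur clusters, stored in ferritin, or exported by ferroportin. The renal cortex filters and takes back iron and hemoglobin, and its proximal tubule cells carry much of that traffic. Heme is opened by heme oxygenase to biliverdin, carbon monoxide and iron, and biliverdin reductases then make bilirubin.

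All 3 corn oil arrays lay on 1 slide scanned on 1 day and all 3 chlorothalonil arrays on another, so slide and treatment cannot be told apart. The source name of chlorothalonil replicate 3 names another compound, ethylenediamine dihydrochloride. Its other labels, the title and the dose among them, give chlorothalonil. The difference of each of the 10 genes on its brightest probe is therefore also given without that array. Between 62.1% and 67.8% of the non-control probes were well above background on an array, the lowest share being that of corn oil replicate 3. No non-control spot was flagged as saturated. All 10 proximal tubule markers were well above background on all 6 arrays, which fits the labelled tissue, and their summed level was 2028 to 2265 times the 75th percentile in corn oil and 2419 to 2469 in chlorothalonil. Its members went both ways, 7 above and 3 below 0, and none of the 10 passed limma's test, with 4 at an unadjusted p under 0.05. The 6 measured red blood cell markers of 8 listed summed to 483 to 502 in corn oil. They include the globins Hba-a1 and Hbb, and Slc4a1, which was also listed as a collecting duct marker. In chlorothalonil they summed to 567 to 614, with no overlap. None of the 6 passed limma's test, and 4 (66.7%) had an unadjusted p under 0.05, beside 19.7% of all features. The summed level of the 7 measured macrophage markers of 10 listed was 14.3 to 23.6 in corn oil and 18.1 to 18.7 in chlorothalonil. Their differences were above 0 for 2 and below 0 for 5. All these sums were taken under the 75th percentile scaling only, and the brightest markers weigh most in them. In a whole piece of cortex, more cells of a type and more RNA per cell cannot be told apart.

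Levels below are log2 of the processed signal relative to the array's 75th percentile, so 0 is the 75th percentile and 1 unit is a doubling, and they compare arrays for 1 probe rather than 1 gene with another. Means are given ± SD over 3 arrays and differences, chlorothalonil minus corn oil, ± the standard error of the limma fit over all features. Where a gene had several probes, the brightest one stands for the gene and the others are described beside it. All 28 probes were well above background on all 6 arrays.

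Promoter windows from 250 bases before to 50 bases after the RefSeq start site, on assembly GRCr8, were found for 6 of the 10 genes. None was found for Hmox1, Fth1, Ftl1 and Slc25a37. The windows of the 3 genes with the largest differences are shown, Pir on the minus strand at chrX:33851000-33851299 and, on the plus strand, Cybrd1 at chr3:76342343-76342642 and Blvrb at chr1:91866008-91866307. Capitals mark matches to the core of the antioxidant response element, TGACNNNGC, the sequence class bound by NRF2 with small MAF proteins, searched on both strands and so also read as GCNNNGTCA.
Pir: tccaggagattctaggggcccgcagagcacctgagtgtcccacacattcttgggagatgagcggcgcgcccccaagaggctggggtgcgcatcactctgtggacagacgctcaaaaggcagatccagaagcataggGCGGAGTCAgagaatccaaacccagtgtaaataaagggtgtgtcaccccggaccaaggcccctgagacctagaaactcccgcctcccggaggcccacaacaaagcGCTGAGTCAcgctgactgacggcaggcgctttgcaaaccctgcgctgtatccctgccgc
Cybrd1: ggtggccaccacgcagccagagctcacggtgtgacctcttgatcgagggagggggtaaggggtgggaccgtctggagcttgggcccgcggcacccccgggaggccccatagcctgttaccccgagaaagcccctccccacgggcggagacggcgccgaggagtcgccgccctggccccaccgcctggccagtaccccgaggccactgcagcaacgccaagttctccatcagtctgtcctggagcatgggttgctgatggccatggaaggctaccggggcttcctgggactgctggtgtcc
Blvrb: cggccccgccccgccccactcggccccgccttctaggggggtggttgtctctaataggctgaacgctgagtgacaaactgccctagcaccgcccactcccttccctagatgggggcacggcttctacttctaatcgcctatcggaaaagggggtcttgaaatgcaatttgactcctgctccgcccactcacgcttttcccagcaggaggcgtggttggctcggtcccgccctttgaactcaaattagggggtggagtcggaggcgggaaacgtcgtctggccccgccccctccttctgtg
The Pir window held 2 matches, both on the strand opposite the gene, from base -114 to -106 and from base -9 to -1 before the start. The second overlaps a match to the AP-1 motif TGACTCA from base -7 to -1. A core match was present in 12.1% of all 33469 rat promoter windows of this length and 2 or more in 0.890%, and the AP-1 motif was present in 4.63%. The windows of Cybrd1, Blvrb, Slc11a2, Slc40a1 and Tfrc held neither set of letters. A match describes the letters of the window and not a bound site.

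Cybrd1 encodes duodenal cytochrome b, a membrane ferric reductase that uses ascorbate to supply ferrous iron. Its levels were -1.30, -1.21 and -1.36 in corn oil replicates 1, 2 and 3, and 3.47, 2.69 and 1.66 in chlorothalonil replicates 1, 2 and 3. The control animals lay close together and every treated animal lay far above them, but the treated animals also lay well apart from each other. The means were -1.29 ± 0.07 and 2.61 ± 0.91, a difference of 3.90 ± 0.44. Before any scaling, the processed signal of this probe ran from 362 to 414 in corn oil and was 9913, 6007 and 2645 in the treated animals.

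The second Cybrd1 probe gave -1.79, -1.73 and -2.22 in corn oil and 1.16, 0.40 and -0.44 in chlorothalonil. Both probes placed the treated animals in the same order, with replicate 1 highest and replicate 3 lowest, and neither overlapped between groups. The difference on the second probe was 2.29, or 4.88-fold, so the probes shared the direction while their sizes were apart. Without chlorothalonil replicate 3, the array with the conflicting source name, the brighter probe gave a difference of 4.37, or 20.7-fold.

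**Figure D1:**
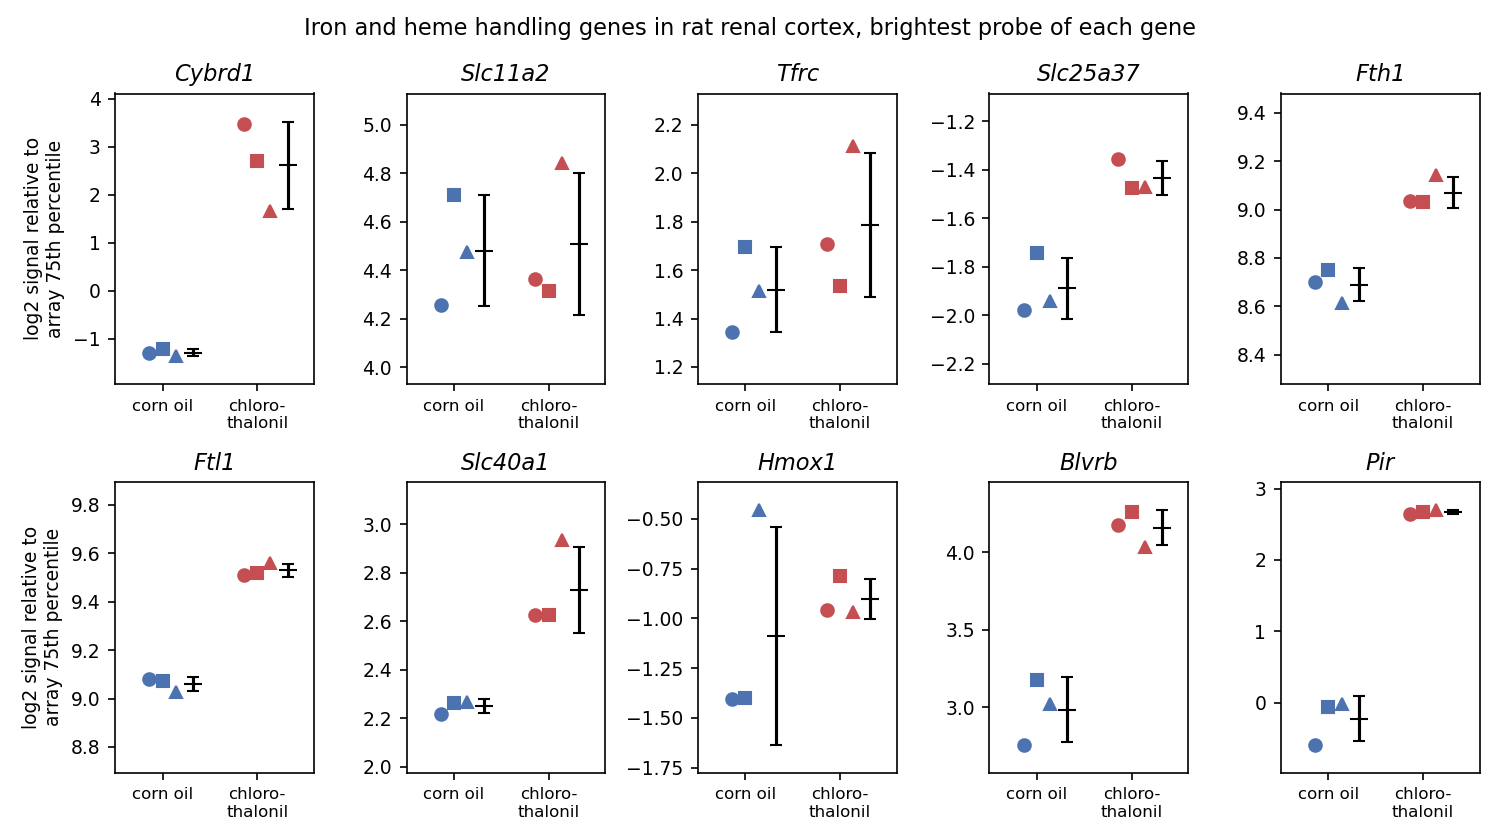
Each panel plots 1 gene's brightest probe, as log2 signal relative to the array's 75th percentile, in the corn oil (blue) and chlorothalonil (red) animals. Circles, squares and triangles are replicates 1, 2 and 3, the bars are the mean ± SD of 3 arrays, and each panel has its own vertical scale. The groups are apart for Cybrd1, Slc25a37, Fth1, Ftl1, Slc40a1, Blvrb and Pir and overlap for Slc11a2, Tfrc and Hmox1.

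Slc11a2 encodes DMT1, which carries ferrous iron across the apical membrane and out of endosomes. Its levels were 4.26, 4.71 and 4.47 in corn oil and 4.36, 4.32 and 4.84 in chlorothalonil. The groups overlapped, and the difference was 0.03 ± 0.18. The other 2 probes of the gene gave differences of 0.00 and 0.01. Without chlorothalonil replicate 3 the difference on the brightest probe was -0.14. It was -0.09 without corn oil replicate 1 and -0.01 after quantile normalization, so the sign was not settled.

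Tfrc encodes the transferrin receptor. It stood at 1.35, 1.70 and 1.51 in corn oil and at 1.71, 1.53 and 2.11 in chlorothalonil, with replicate 3 above all others, replicate 1 barely above the highest control and replicate 2 among the controls. The difference was 0.27 ± 0.17, and 0.10 without chlorothalonil replicate 3. The 2 dimmer probes gave 0.02 and -0.28, so the probes of this gene disagreed in direction, and the mean over the 3 probes gave 0.00. Slc25a37 encodes mitoferrin 1, the importer of iron across the inner mitochondrial membrane, best known in developing red blood cells. It stood at -1.98, -1.74 and -1.94 in corn oil and at -1.36, -1.48 and -1.47 in chlorothalonil. Every treated animal was above every control, a difference of 0.45 ± 0.09 or 1.37-fold, and the second probe gave 0.35. Without chlorothalonil replicate 3 the difference on the brightest probe was 0.47. The red blood cell markers moved in the same direction as Slc25a37, all 6 being above 0 with a median difference of 0.30. Among them Slc4a1, with the largest difference at 0.73, was also listed as a collecting duct marker. The part of red blood cells in the Slc25a37 difference was not tested.

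Fth1 encodes the ferritin heavy chain, the ferroxidase subunit of the storage shell. Its levels were 8.70, 8.75 and 8.61 in corn oil and 9.04, 9.03 and 9.14 in chlorothalonil. The groups did not overlap, and the means of 8.69 ± 0.07 and 9.07 ± 0.06 differed by 0.38 ± 0.07, or 1.30-fold. Its 4 probes gave differences between 0.17 and 0.38. The brightest gave 0.34 without chlorothalonil replicate 3.

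Ftl1 encodes the ferritin light chain, which favours formation of the iron core. Its levels were 9.08, 9.07 and 9.03 in corn oil and 9.51, 9.52 and 9.56 in chlorothalonil, with tight values in each group and a gap between them. The difference was 0.47 ± 0.06, or 1.39-fold, and its 5 probes gave 0.47 to 0.73. On the brightest probe it was 0.45 without chlorothalonil replicate 3. Ferritin genes have near-identical copies in the genome, so how much of a probe's signal belongs to the named gene is uncertain.

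Both ferritin probes are among the brightest on the array, and the size of their difference depended on the scaling. Of the 106 features with a mean level above 8, 98 (92.5%) had a difference above 0, with a median of 0.18. Under Fth1's difference lay all but 12 of these 106 features, and under Ftl1's all but 6. After quantile normalization the median of the bright features was -0.05, Fth1 differed by 0.13 and Ftl1 by 0.24. Background correction of the median spot signal by normexp gave 0.14 and 0.21. The direction of both ferritins was upward under every scaling tried, while the sizes were smaller by more than 1.5 times under these settings, and Ftl1 no longer passed the threshold in them. The red blood cell marker sum and the proximal tubule marker sum were also higher in the treated group, although 3 of the 10 proximal tubule markers were below 0, and their part in the ferritin differences was not tested.

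Slc40a1 encodes ferroportin, the exporter of ferrous iron. Its levels were 2.22, 2.26 and 2.27 in corn oil and 2.63, 2.63 and 2.93 in chlorothalonil. All treated animals were above all controls, and replicate 3 was the highest of them. The means of 2.25 ± 0.03 and 2.73 ± 0.18 differed by 0.48 ± 0.10, or 1.39-fold, with 0.38 when chlorothalonil replicate 3 was left out. The 3 probes gave differences of 0.48 to 0.66. Macrophages also express ferroportin strongly. The macrophage marker sums of the treated animals lay inside the corn oil range. The median difference of the 7 measured markers was -0.08, with 2 above 0 and 5 below. Adgre1 differed by -0.47 ± 0.12, with every treated animal below every control and an adjusted p of 0.123 in limma's fit. The part of macrophages in the Slc40a1 difference was not tested.

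Hmox1 encodes heme oxygenase 1, the inducible enzyme that opens the heme ring. Its single probe gave -1.41, -1.40 and -0.46 in corn oil and -0.96, -0.79 and -0.97 in chlorothalonil. Corn oil replicate 3 was the highest of all 6 animals, and the other two controls were the lowest. The means of -1.09 ± 0.55 and -0.90 ± 0.10 differed by 0.18 ± 0.27, and by 0.21 without chlorothalonil replicate 3. Without corn oil replicate 3, the array with the smallest share of probes above background, the difference was 0.50, and without corn oil replicate 1 it was 0.02, so the value rests on which control is included.

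Blvrb encodes biliverdin reductase B, a flavin reductase that also acts on biliverdin. Its levels were 2.76, 3.18 and 3.02 in corn oil and 4.18, 4.26 and 4.04 in chlorothalonil. The groups stood clearly apart with similar spread in each. The means of 2.98 ± 0.21 and 4.16 ± 0.11 differed by 1.17 ± 0.13, or 2.26-fold. Its 3 probes gave differences of 2.14-fold to 2.28-fold, and the difference was 1.24 without chlorothalonil replicate 3. Of the heme breakdown genes chosen, Blvrb had the larger difference and Hmox1 the smaller, and the difference between them was not tested.

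Pir encodes pirin, an iron-binding nuclear protein that acts as a redox-sensitive cofactor of transcription factors. Its levels were -0.59, -0.06 and -0.02 in corn oil and 2.64, 2.67 and 2.70 in chlorothalonil. The treated animals were nearly equal, and the controls spread more, with replicate 1 lowest. The means of -0.22 ± 0.32 and 2.67 ± 0.03 differed by 2.89 ± 0.16. The second probe gave -3.72, -3.03 and -3.21 in corn oil and -0.26, -0.16 and -0.22 in chlorothalonil, a difference of 3.11, or 8.63-fold. Leaving out chlorothalonil replicate 3 gave 2.88 on the brightest probe. Of the 6 genes with a promoter window, Pir is the one whose window holds the paired core matches printed above. Their part in its difference was not tested.

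**Figure D2:**
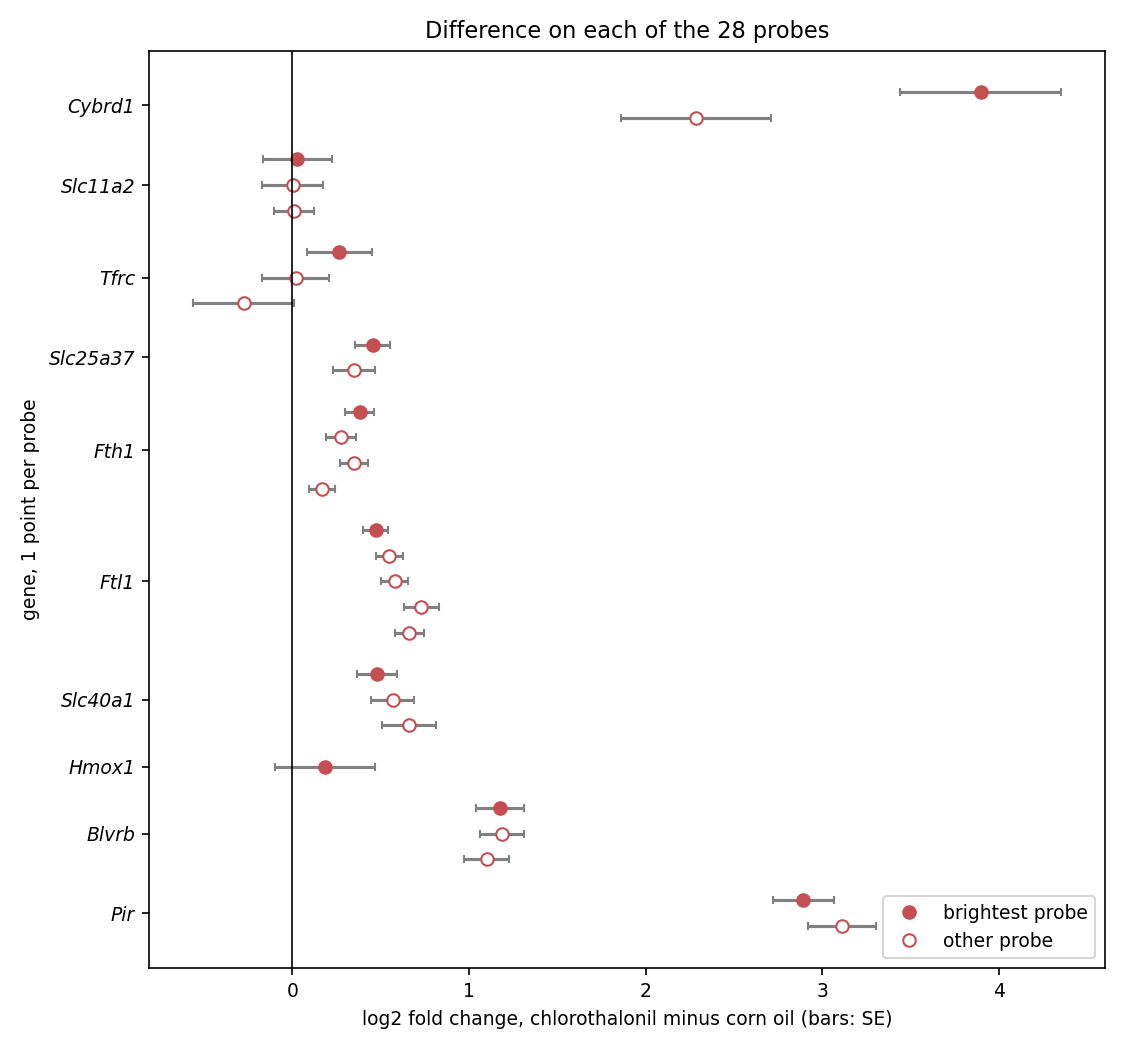
Each point is 1 probe's difference, chlorothalonil minus corn oil, on the log2 scale, and the bars are the standard error from a fit over all probes. Probes are grouped by gene, and filled points are each gene's brightest probe. Cybrd1 probes lie at 2.29 and 3.90, Pir probes at 2.89 and 3.11, Blvrb probes at up to 1.19, and Tfrc is the gene whose probes lie on both sides of 0.

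In the fit across all 29115 features, 909 (3.12%) passed an adjusted p of 0.05, 378 higher (1.3%) and 531 lower (1.82%). Scaling each array to its median in place of its 75th percentile gave 435 higher and 368 lower. Among the 11926 features with a gene symbol the share was 2.14%. Of the 10 genes, 4 passed the same threshold, Cybrd1, Pir, Blvrb and Ftl1, all higher. In 7 of the 10 every treated animal lay above every control, beside 13.6% of all features. The median difference of the 10 was 0.46 and that of all features 0.00. With 1 array left out, 1 or 2 of the 10 passed, Pir in each case. The count was 7 with a trended, robust variance prior, 5 with only probes well above background on all 6 arrays, 3 after quantile normalization and 1 with no filter on dim probes. Because this contrast was known when the genes were chosen, nothing is read from these shares.

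The treated animals did not share 1 order across the genes. Chlorothalonil replicate 3 was the highest treated animal on all 3 probes each of Tfrc, Slc40a1 and Slc11a2, and the lowest on both Cybrd1 probes and all 3 Blvrb probes. Over the 28 probes, which repeat the same genes, it was the highest treated array on 15, and over all features it was highest for 38.6% and lowest for 35.0%. Tfrc, Slc11a2 and Slc40a1 stood highest in the treated animal in which Cybrd1 and Blvrb stood lowest. This describes 1 array, the one with the conflicting source name. On the Blvrb probes it lay only 0.04 to 0.12 below the treated mean. Fth1, Ftl1, Pir and Slc25a37 placed it neither highest nor lowest on all their probes, and Hmox1 placed it lowest on its single probe.

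**Figure D3:**
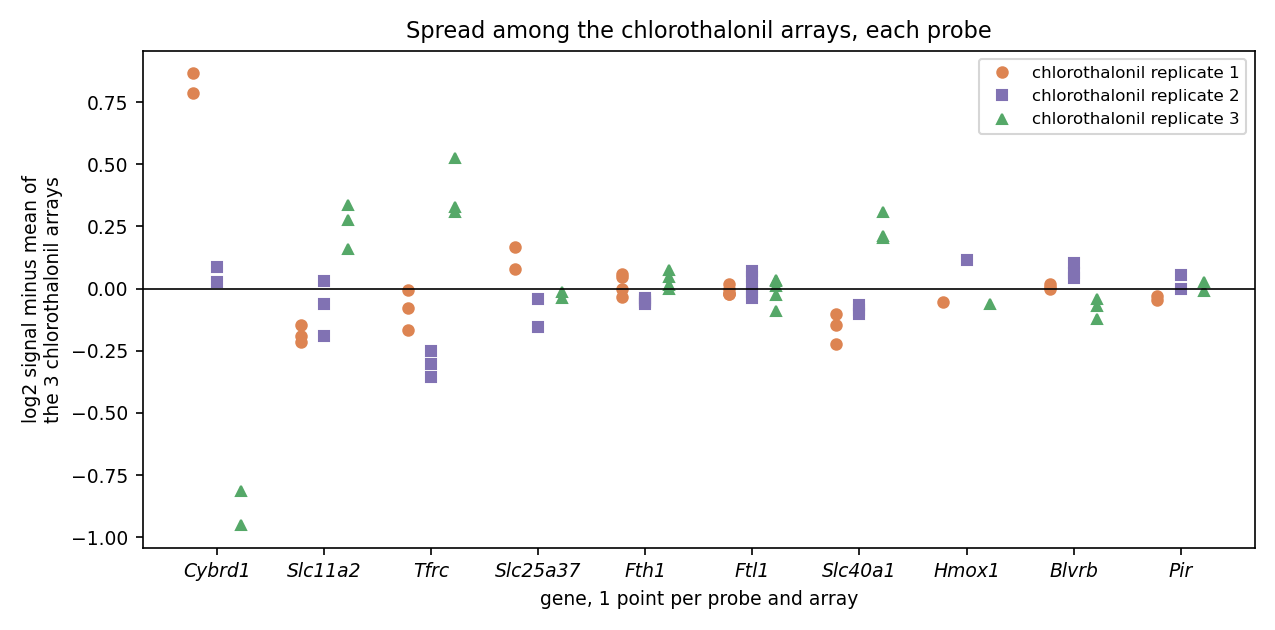
Each point is a treated animal's deviation from the chlorothalonil mean of that probe, on the log2 scale, for the probes of the 10 genes. Replicate 3 lies lowest for Cybrd1, at -0.95 on the brighter probe, and highest for Tfrc, Slc40a1 and Slc11a2, while the 3 Pir values nearly coincide.

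The genes whose levels followed Cybrd1 and Pir most closely over the 6 arrays were found among 11316 features with a symbol. These were well above background and measured on all 6 arrays, and symbols that are predicted-locus names were left out. The measure was Pearson's r, which is high for any gene whose group difference is large beside its spread within groups. It does not follow the size of the difference and is a description over 6 arrays that share treatment and slide. For Cybrd1 the closest were Acaa1a, a peroxisomal thiolase, at 0.997, Rp9 at 0.997, and Ntpcr at 0.996. Next were Slc34a1, the main phosphate transporter of the proximal tubule, at 0.996, and Stard3nl at 0.994. Their log2 differences were 1.28, 0.32, 0.21, 0.27 and 0.31 in that order, beside 3.90 for Cybrd1. For Pir they were Gstp1, a glutathione transferase, at 0.999, Akr7a3, an aldehyde reductase, at 0.998, and Slc17a1 at 0.997. Txn1, thioredoxin, and Mfsd3 followed, both at 0.997. In the same order the differences were 2.93, 1.71, 0.96, 0.68 and 0.40, beside 2.89 for Pir.

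A list of 69 other genes of iron and heme handling was set beside the 10, and 62 of them could be tested. In limma's test with Benjamini-Hochberg adjustment over all 29115 features, 2 rose, Fech and Pgrmc1, and none fell. The share of 3.23% is near the 3.12% of all features. All 62 genes have a symbol, and among the 11926 features with a symbol the share was 2.14%. Of those 11926, 6646 were above 0, and 18.6% had an unadjusted p under 0.05 in limma's fit. Differences were above 0 for 40 and below 0 for 22, with a median of 0.08. At an unadjusted p under 0.05 there were 13 of 62, beside 19.7% of all features. The remaining 7 had no matched probe, as for Pcbp1, Fbxl5 and Flvcr1, or probes too dim to be tested, as for Tfr2 and Cd163.

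**Figure D4:**
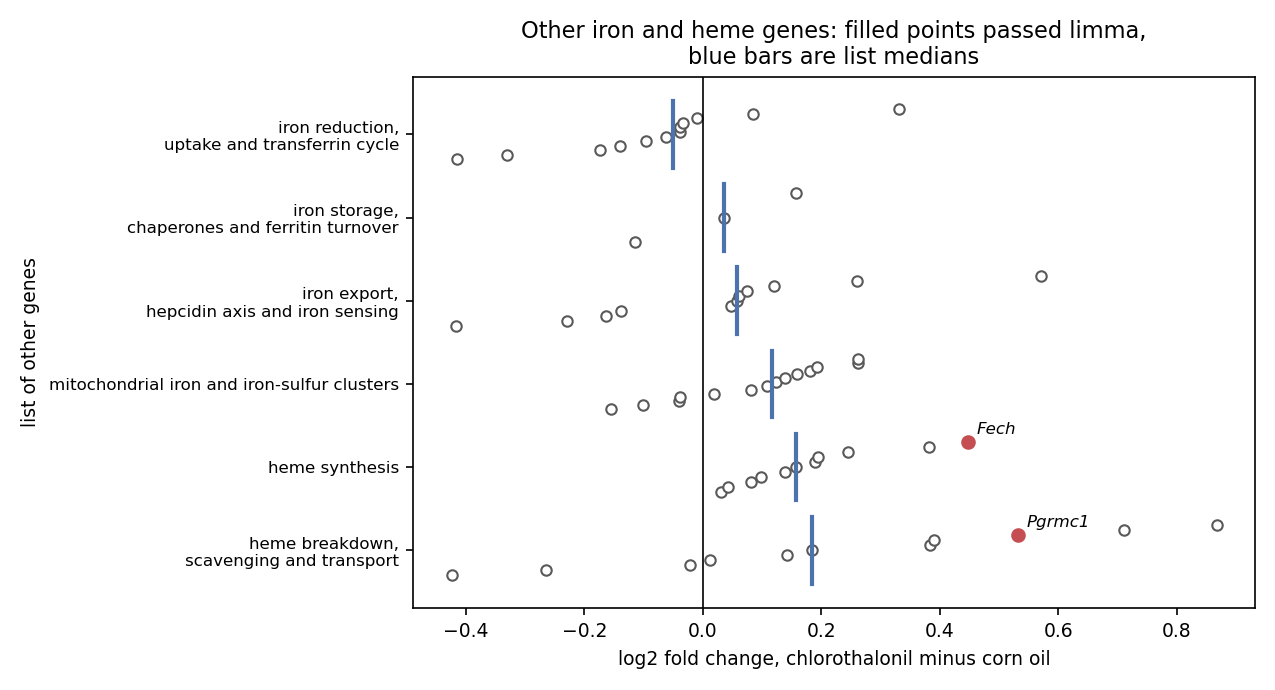
Each point is the difference, chlorothalonil minus corn oil, on the log2 scale, of 1 of 62 other iron and heme genes, by list, with filled red points for genes past an adjusted p of 0.05 in limma's fit and blue bars for list medians. Fech, at 0.45, and Pgrmc1, at 0.53, are the filled points, and all 11 heme synthesis genes lie above 0.

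Among heme synthesis genes, all 11 were above 0 on their brightest probe with a median of 0.16. Above 0 were 14798 of all 29115 features and 6646 of the 11926 with a symbol. In 5 (45.5%) every treated animal lay above every control, beside 13.6% of all features and 16.3% of those with a symbol. An unadjusted p under 0.05 in limma's fit was found for 4 (36.4%), beside 19.7%. The adjusted threshold was passed by 1 (9.09%), beside 3.12% of all features. That gene was Fech, ferrochelatase, which inserts iron into protoporphyrin in mitochondria. Its levels were 0.54, 0.45 and 0.51 in corn oil and 1.03, 0.90 and 0.92 in chlorothalonil, so that every treated animal was above every control. It rose by 0.45 ± 0.07 on the log2 scale, or 1.36-fold, with an adjusted p of 0.0331 in limma's fit. The call was lost when any 1 of the 6 arrays was left out, with adjusted p between 0.0847 and 0.113 and the difference between 0.41 and 0.47, and it was lost with no filter on dim probes, at an adjusted p of 0.107 in limma's fit. Alas1, the rate-limiting enzyme of heme synthesis outside red blood cells, differed by 0.38 ± 0.12 with an adjusted p of 0.164 in limma's fit. Alas2, its form in developing red blood cells, is itself among the red blood cell markers and differed by 0.25, and the part of red blood cell RNA in the Fech difference was not tested.

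Of the 11 tested genes of heme breakdown, scavenging and transport, 8 were above 0, with a median of 0.18. Of all 29115 features, 14798 were above 0, and of the 11926 with a symbol, 6646. An unadjusted p under 0.05 in limma's fit was found for 5 (45.5%), beside 19.7% of all features, and 1 (9.09%) passed, beside 3.12%. Pgrmc1 encodes a heme-binding membrane protein that partners cytochrome P450 enzymes and ferrochelatase. It stood at 5.71, 5.71 and 5.64 in corn oil and at 6.21, 6.24 and 6.21 in chlorothalonil, with small spread in both groups and a clear gap. It rose by 0.53 ± 0.06, or 1.45-fold, with an adjusted p of 0.0143 in limma's fit, and its 4 probes gave 0.47 to 0.55. Leaving out corn oil replicate 1 kept the call at an adjusted p of 0.0486, and leaving out any other array gave 0.0584 to 0.0688, as did keeping dim probes, at 0.0634. The scavengers Hp, haptoglobin, and Hpx, hemopexin, varied widely among animals, Hp by 0.87 ± 0.83 with an adjusted p of 0.618 and Hpx by 0.71 ± 0.65 with an adjusted p of 0.597 in limma's fit.

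Of the same list, 3 further genes, Slc46a1, Abcb6 and Slc48a1, are named here after their values were seen, for an adjusted p near the threshold. Slc46a1, a folate and heme importer, differed by -0.42 with an adjusted p of 0.0535. Abcb6, a mitochondrial porphyrin transporter, differed by 0.39 with an adjusted p of 0.0605, and Slc48a1, which moves heme out of lysosomes, by 0.38 with an adjusted p of 0.0711, all in limma's fit. Groups did not overlap for any of these, which were picked for a small p, beside 8057 of all 29115 features without overlap. A second probe of Slc46a1 gave a smaller difference of -0.16.

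The other lists held no gene that passed limma's test. Of 12 tested uptake genes, 2 were above 0, beside 14798 of all 29115 features and 6646 of the 11926 with a symbol. The median was -0.05, and 1 (8.33%) had an unadjusted p under 0.05 in limma's fit, beside 19.7% of all features. This gene was Steap1, of the metalloreductase family, which differed by -0.41 ± 0.12 with an adjusted p of 0.137. Scara5, a ferritin receptor, differed by -0.33 ± 0.51 with an adjusted p of 0.767.

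Of the 3 storage genes tested, 0 passed limma's test and 0 had an unadjusted p under 0.05. Ncoa4, the cargo receptor for ferritin breakdown, differed by 0.16 ± 0.17 with an adjusted p of 0.670, and the iron chaperone Pcbp2 by -0.11 ± 0.07 with an adjusted p of 0.430. Of the 11 export and sensing genes, 0 passed limma's test and 0 had an unadjusted p under 0.05. Hamp, hepcidin, differed by 0.57 ± 0.54 with an adjusted p of 0.608, and Ireb2, an iron regulatory protein, by -0.42 ± 0.44 with an adjusted p of 0.655.

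Of the 14 mitochondrial iron and iron-sulfur cluster genes, 10 were above 0, the median was 0.12, and in 6 (42.9%) every treated animal lay above every control, beside 13.6% of all features and 16.3% of those with a symbol. None passed limma's test and 3 (21.4%) had an unadjusted p under 0.05, beside 19.7% of all features. Slc25a28, mitoferrin 2, which serves cells other than red blood cells, differed by 0.26 ± 0.11 with an adjusted p of 0.281. Bola3, an iron-sulfur assembly factor, differed by 0.26 ± 0.10 with an adjusted p of 0.240.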

How the data were processed

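Renal cortex RNA of 3 corn oil and 3 chlorothalonil rats was measured on 1-colour Agilent arrays. Spots were read with Agilent Feature Extraction 10.7, per the submitters' processing notes, and the processed signal intensity, already background-corrected by that software per the file headers, was deposited for each array. A second deposited table gives a ratio to the authors' own constant for each array, found from the values to lie near its 75th percentile. It was used as an alternative.

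From the intensity, log2 minus each array's 75th percentile over non-control probes was computed, and spots marked as outliers were left out. Probes had to be called well above background in every animal of one group or the other, leaving 39862 probes. Probes were named by accession through the RefSeq table of assembly GRCr8, 28206 matching 1 gene and 33331 none, and the brightest kept probe stood for a gene. limma 3.58.1 in R 4.3.3 was fitted to all 29115 features, with Benjamini-Hochberg adjustment and a threshold of 0.05. The fit was tested on simulated data. Alternatives changed the scaling, background correction, dim-probe filter, choice of probe, outlier spots, variance prior, replicate block and arrays included.

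The 10 genes and all lists were chosen with earlier results of these data known. Of the other iron and heme genes, the text names each that passed the threshold and, per list, the 2 with the largest absolute difference, and says where it names others. The array design and GRCr8 use different builds, so no array coordinates are given.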

Additional observations from a re-analysis of the deposited data

How the results depend on the processing

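The count of 909 features past the threshold became 1381 with normexp background correction, 172 with no filter on dim probes and 112 to 388 when 1 array was left out. The count of 2 iron and heme genes became 6 with a trended, robust variance prior, 0 with no filter on dim probes (9 at an unadjusted p under 0.05 in limma) and 0 to 1 when 1 array was left out. With the replicate block, limma called 0 of 29115 features (5271 at an unadjusted p under 0.05) and 0 of 62 iron and heme genes (9 unadjusted), and 0 of the 10 genes. The labels give no sign that the replicate numbers pair animals. Deviations of same-numbered arrays correlated at 0.09, 0.02 and 0.05, which cannot exclude a shared origin. The signs of 5 named genes turned when 1 array was left out, Slc11a2, whose values stand with its description, and 4 others. Hp ranged from -0.0362 without corn oil replicate 1 to 1.344 without corn oil replicate 2, and Ireb2 from 0.10 without corn oil replicate 1 to -0.7512 without corn oil replicate 2. Scara5 ranged from 0.13 without corn oil replicate 2 to -0.7913 without corn oil replicate 1, and Hamp from -0.0191 without chlorothalonil replicate 2 to 0.9446 without chlorothalonil replicate 3. The causes were not tested. Over the 16 settings other than single probes, the difference ranged from 3.09 to 4.37 for Cybrd1, 2.71 to 3.00 for Pir, 1.06 to 1.27 for Blvrb, 0.36 to 0.57 for Slc40a1 and 0.40 to 0.53 for Slc25a37. A slide block was not run because each slide holds 1 group. Among the other genes named, Hp and Hpx had the largest standard errors, 0.83 and 0.65.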

Other observations

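Control animals also differed from one another on the probes of the 10 genes. Corn oil replicate 2 was the highest control on 21 of the 28 probes, beside 33.9% of all features, and corn oil replicate 1 was the lowest on 16 and replicate 3 on 12. Probes of the same gene are not independent, and no test was made.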
